A study of Mus musculus with 3 samples.

Results

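The 33 genes described here were at a lower level in suprarenal dissecting aneurysms (AngII AAA) than in the suprarenal aorta of both other cohorts. They were selected on these values: each was present in the list of AngII AAA vs. AngII No AAA and in the list of AngII AAA vs. Saline, with the lower FPKM in AngII AAA both times. FPKM is the number of sequenced fragments of a gene divided by the length of its transcript and by the depth of its library, so that levels can be compared between genes. The 3 lists of the series held 1238 entries, of which 386 were in both AngII AAA lists, with 344 higher in AngII AAA in both and 41 lower in both. Of the 41, 8 were set aside by the rule by their symbols, namely Sost, which encodes the Wnt inhibitor sclerostin, and the matrix, protease-related, and smooth muscle genes Optc, Fmod, Lmod1, Synpo2, Col4a6, Adamtsl5, and Thsd4. The falls of the 33 genes are therefore a description, and no test was made of them.

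All 3 cohorts were male apoE null mice on the C57BL/6 background, aged 12 weeks at surgery, a strain that lacks apolipoprotein E and has raised blood cholesterol. Pumps delivered angiotensin II (AngII), a peptide that constricts vessels and raises blood pressure, or saline. AngII AAA was a pool of dissecting abdominal aortic aneurysms taken within 24 hours of diagnosis, AngII No AAA a pool of suprarenal aortas without an aneurysm taken on day 10 of AngII, and Saline a pool of suprarenal aortas taken on day 10 of saline. RNA came from a portion of each lesion or aorta. Each cohort was 1 library of RNA pooled from several animals, so the spread between animals cannot be seen, and the time of harvest and the tissue taken differed between AngII AAA and the other cohorts.

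The wall of the suprarenal aorta is built mainly of smooth muscle cells, which contract through actin and myosin, take calcium from an internal store, and adhere to the matrix through integrins. Their contractile genes are driven by serum response factor and its partner myocardin, which act at a short DNA element named the CArG box. In a dissection, blood enters the wall, a thrombus forms, and leukocytes gather, so that the tissue sampled holds more cell types than a normal wall.

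The levels of the 33 genes ran from 4.18 to 156 FPKM in Saline with a median of 32, from 4.39 to 126 FPKM in AngII No AAA with a median of 24.3, and from 0 to 36.7 FPKM in AngII AAA with a median of 8.59. In AngII AAA, 2 genes were under 1 FPKM, and none exceeded 50 FPKM, a level exceeded by 9 genes in AngII No AAA and 11 in Saline. All 3 values of a gene are given throughout on a common scale, that of the list against Saline.

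**Figure D1:**
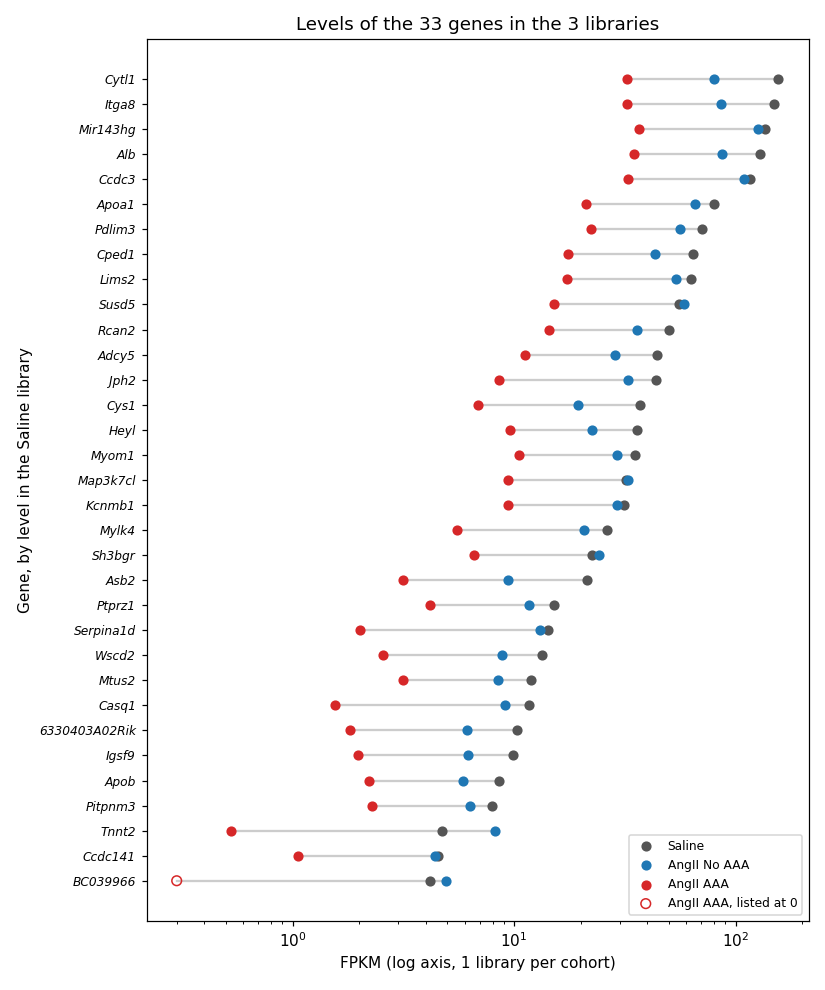
FPKM (log axis) of each of the 33 genes in the Saline, AngII No AAA, and AngII AAA libraries, 1 point per library, ordered by the level in Saline. The AngII AAA point lies to the left of both others for every gene, as the selection required, and BC039966, listed at 0 in AngII AAA, is drawn as an open circle at the left edge.

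In AngII AAA vs. AngII No AAA, 126 of 600 listed genes (21%) were lower in AngII AAA, and 38 (6.33%) were over 4-fold lower. Of the 33 genes, 5 (15.2%) were over 4-fold lower, namely Tnnt2, Serpina1d, Casq1, Ccdc141, and BC039966, which was listed at 0 in AngII AAA, and their median log2 difference over the 32 genes above 0 was -1.63, with a range from -3.97 to -1.22. In AngII AAA vs. Saline, 110 of 715 listed genes (15.4%) were lower in AngII AAA, and 66 (9.23%) were over 4-fold lower. Of the 33 genes, 14 (42.4%) were over 4-fold lower, 13 of them with a level above 0 and BC039966 at 0, with a median log2 difference of -1.91 and a range from -3.17 to -1.67. Among all the genes listed as lower, 30.2% were over 4-fold lower than in AngII No AAA and 60% over 4-fold lower than in Saline, with medians of -1.70 and -2.06. In both comparisons the share of the 33 genes over 4-fold lower was thus below that of all genes listed as lower.

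The lists limit what could be selected. The smallest fall of any listed gene was -1.21 on the log2 scale in AngII AAA vs. AngII No AAA and -1.57 in AngII AAA vs. Saline, and Heyl (-1.22) and Pdlim3 (-1.67) were the members nearest to these limits. A further 85 genes were lower than in AngII No AAA only, and 69 lower than in Saline only. A gene missing from a list may have fallen by less or have had a larger error, and its difference is not known here. A single entry in both lists went in opposite directions: Sfrp4, a secreted Wnt modulator, was at 25.1 FPKM in Saline, 299 FPKM in AngII No AAA, and 90.8 FPKM in AngII AAA.

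**Figure D2:**
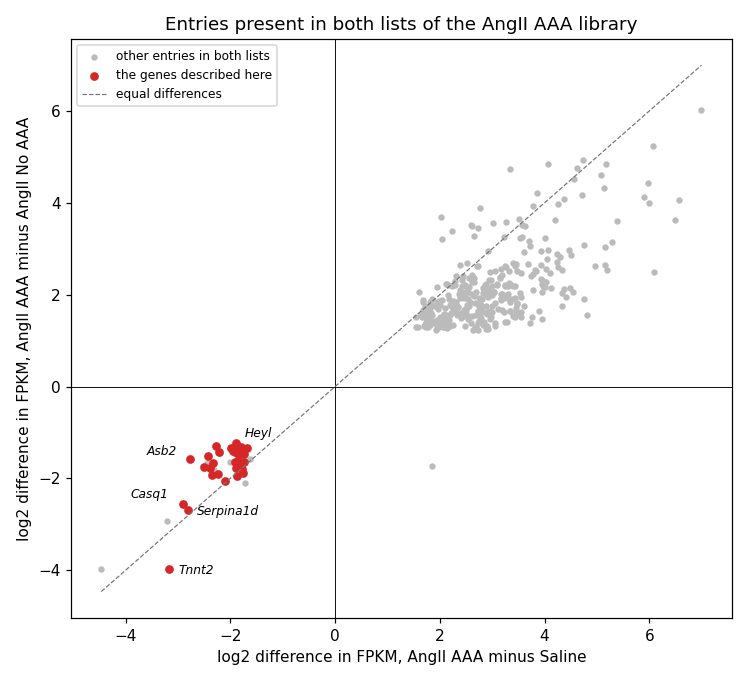
Log2 difference in FPKM between AngII AAA and AngII No AAA (vertical axis) against that between AngII AAA and Saline (horizontal axis) for the entries in both lists with values above 0. The members (red) sit in the lower left, by selection. Of them, 28 lie above the dashed line of equal differences, with a larger fall against Saline. Both axes share the AngII AAA library. The smallest listed fall was -1.57 against Saline and -1.21 against AngII No AAA, which favours this side of the line.

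Genes of the contractile apparatus and its calcium store numbered 7, with a median log2 difference of -1.91 against AngII No AAA and -2.24 against Saline. Tnnt2 (chromosome 1, 137732911 to 137748845 in mm9) encodes a troponin T of cardiac muscle, which anchors the troponin complex to tropomyosin. It was at 4.73 FPKM in Saline, 8.24 FPKM in AngII No AAA, and 0.525 FPKM in AngII AAA. The AngII AAA level was 15.7-fold below that in AngII No AAA and 9.0-fold below that in Saline, and Tnnt2 was the gene with the largest fall of the 32 above 0. It was also the gene in which AngII No AAA stood highest over Saline. Tnnt2 was the only listed gene of 16 cardiac muscle markers in either AngII AAA list.

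Casq1 (chromosome 1, 174140025 to 174150026) encodes calsequestrin 1, which binds calcium in the sarcoplasmic reticulum, mainly of skeletal muscle. Its level was 11.7 FPKM in Saline, 9.13 FPKM in AngII No AAA, and 1.55 FPKM in AngII AAA, a log2 difference of -2.56 and -2.91 against AngII No AAA and Saline. Jph2 (chromosome 2, 163161978 to 163223729) encodes junctophilin 2, which holds the calcium store close to the cell membrane. It was at 43.6 FPKM in Saline, 32.6 FPKM in AngII No AAA, and 8.59 FPKM in AngII AAA. Relative to AngII No AAA, the level left in AngII AAA was 17% for Casq1 and 26.3% for Jph2.

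Mylk4 (chromosome 13, 32792696 to 32873648), which encodes a member of the myosin light chain kinase family, was at 26.2 FPKM in Saline, 20.8 FPKM in AngII No AAA, and 5.52 FPKM in AngII AAA. Myom1 (chromosome 17, 71368897 to 71476196) encodes myomesin 1, which links myosin filaments at the M band of striated muscle. It was at 35.3 FPKM in Saline, 29.0 FPKM in AngII No AAA, and 10.5 FPKM in AngII AAA. Pdlim3 (chromosome 8, 46970839 to 47004900) encodes a PDZ and LIM protein that binds alpha-actinin. It was at 70.6 FPKM in Saline, 56.1 FPKM in AngII No AAA, and 22.1 FPKM in AngII AAA, and was the most abundant of these 7 genes in every library. Sh3bgr (chromosome 16, 96422077 to 96450540), named for a domain rich in glutamic acid, was at 22.5, 24.3, and 6.61 FPKM in Saline, AngII No AAA, and AngII AAA. Like Tnnt2, it was no lower in AngII No AAA than in Saline.

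The promoter sequences of 26 of the 33 genes were found in RefSeq (GRCm38.p6), each running from 250 bases before the start site to 50 bases from it on. A CArG box, searched on both strands as CC, then 6 bases that are A or T, then GG, was present in 2 of the 26 (7.69%), those of Asb2 and Myom1, and in 1.81% of the promoters of 27025 symbols. The 2 promoters are shown because both hold this element of muscle genes upstream of the start, with the CArG box in capitals, and they are printed on the strand of the gene. The Asb2 promoter lies at chr12:103355952-103356251 on the minus strand with the box at positions -64 to -55, and that of Myom1 at chr17:71019307-71019606 on the plus strand with the box at positions -99 to -90, where position -1 is the base before the start.
Asb2: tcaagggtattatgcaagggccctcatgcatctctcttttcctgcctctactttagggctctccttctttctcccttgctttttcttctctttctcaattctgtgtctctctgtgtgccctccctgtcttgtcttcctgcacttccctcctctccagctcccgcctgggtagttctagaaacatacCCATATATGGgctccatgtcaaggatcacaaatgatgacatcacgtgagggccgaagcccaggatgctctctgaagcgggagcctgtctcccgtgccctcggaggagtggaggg
Myom1: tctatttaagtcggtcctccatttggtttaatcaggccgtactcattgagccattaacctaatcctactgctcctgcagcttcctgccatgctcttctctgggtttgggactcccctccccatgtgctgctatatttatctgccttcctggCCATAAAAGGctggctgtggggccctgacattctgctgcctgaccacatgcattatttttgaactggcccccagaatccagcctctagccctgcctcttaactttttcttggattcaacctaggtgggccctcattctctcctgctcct
The boxes themselves read CCATATATGG in Asb2 and CCATAAAAGG in Myom1, each with the uninterrupted core of A and T that the search required. TATAAA on either strand was present in 1 of the 26 promoters (3.85%), that of Apob, against 15.7% of all promoters. The E box, CANNTG, which reads the same on both strands, was present in 20 of the 26 (76.9%), against 75% of all promoters. A match is a description of the letters only, and the 7 genes without a promoter in the table were 6330403A02Rik, Heyl, Lims2, Map3k7cl, Mir143hg, Sh3bgr, and Wscd2.

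Other smooth muscle genes were listed as lower in AngII AAA as well. Of 40 smooth muscle contractile and cytoskeletal genes, 8 were in AngII AAA vs. AngII No AAA and 8 in AngII AAA vs. Saline, all lower in AngII AAA. Over all listed genes, 21% and 15.4% were lower. The 6 in both lists were the members Casq1, Itga8, Pdlim3, Sh3bgr, Susd5, and Tnnt2, whose direction was fixed by the selection. Casq1 was also among the skeletal muscle markers and Tnnt2 among the cardiac ones. The genes that were not members were Itgbl1 and Nexn against AngII No AAA, and Pcp4l1 and Ppp1r14a against Saline. The summed level of the 6 members, lowest in AngII AAA by selection, was 314 FPKM in Saline, 243 FPKM in AngII No AAA, and 78.2 FPKM in AngII AAA. Of the 10 smooth muscle genes left out by the rule, 7 were listed as lower than in AngII No AAA and 2 as lower than in Saline. Acta2, Tagln, Myh11, Cnn1, and Myocd were listed against AngII No AAA only, so that they did not meet the selection by their values either. In that list Acta2, the actin of smooth muscle, was at 926 FPKM in AngII No AAA and 304 FPKM in AngII AAA. With bulk tissue, fewer smooth muscle cells and less RNA of these genes per cell cannot be told apart.

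Skeletal muscle markers were also lower in AngII AAA wherever they were listed. Of 34 such markers, 3 of 3 listed in AngII AAA vs. AngII No AAA were lower in AngII AAA, namely Casq1, Myom1, and Dusp27. In AngII AAA vs. Saline, 6 of 6 were lower: Casq1, Myom1, Mybpc2, Myot, Pgam2, and Pygm. Unlike in the smooth muscle lists, 19 markers were listed in AngII No AAA vs. Saline and all 19 were lower in AngII No AAA. Of all genes in that list, 206 of 564 (36.5%) were lower. Mybpc2, Myot, Pgam2, and Pygm were among the 19, while Casq1 and Myom1 were not. Against Saline, the log2 differences in AngII AAA and in AngII No AAA were -1.72 and -2.76 for Myot and -1.96 and -1.97 for Pgam2. They were -1.74 and -1.42 for Mybpc2 and -2.16 and -1.77 for Pygm. Casq1 and Myom1 were 0.784 and 0.823 of the Saline level in AngII No AAA. In comparison, Ttn, the giant elastic protein of the sarcomere, went from 34.8 FPKM in Saline to 6.12 FPKM in AngII No AAA in that list, and Tnnt3 from 139 to 25.5 FPKM. The part that skeletal muscle in the samples played in the values of Casq1 and Myom1 was not tested.

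The 5 genes of adhesion and the cell surface had a median log2 difference of -1.62 against AngII No AAA and -1.87 against Saline. Itga8 (chromosome 2, 12028287 to 12233942) encodes integrin alpha 8, a receptor for matrix ligands on smooth muscle and other mesenchymal cells. It was at 149 FPKM in Saline, 86.1 FPKM in AngII No AAA, and 32.2 FPKM in AngII AAA, so that its level stepped down from Saline over AngII No AAA to AngII AAA. Lims2 (chromosome 18, 32091161 to 32118273) encodes a LIM domain protein of the complex that joins integrins to actin. Lims2 was at 62.9 FPKM in Saline, 53.7 FPKM in AngII No AAA, and 17.4 FPKM in AngII AAA, and AngII No AAA and Saline were within 1.5-fold of each other.

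Susd5 (chromosome 9, 113966472 to 114007851), a gene for a sushi domain protein, was at 55.6 FPKM in Saline, 58.6 FPKM in AngII No AAA, and 15.2 FPKM in AngII AAA. Its level was the same within 1.5-fold in both libraries without an aneurysm and was 3.86-fold below AngII No AAA in AngII AAA. Ptprz1 (chromosome 6, 22825502 to 23002916) encodes a receptor tyrosine phosphatase and was at 15.2, 11.7, and 4.19 FPKM in Saline, AngII No AAA, and AngII AAA. Igsf9 (chromosome 1, 174412344 to 174429008) encodes a cell adhesion protein of the immunoglobulin superfamily and was at 9.88, 6.21, and 1.97 FPKM. Both of these were lower in AngII No AAA than in Saline, Igsf9 by more than 1.5-fold.

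Among ion channel and signalling genes, 5 members had a median log2 difference of -1.47 against AngII No AAA and -1.79 against Saline. Kcnmb1 encodes the beta 1 subunit of the large-conductance calcium-activated potassium channel, which opens in smooth muscle when calcium rises and opposes contraction. It was at 31.3 FPKM in Saline, 29.1 FPKM in AngII No AAA, and 9.39 FPKM in AngII AAA. The entry spans 363853 bases (chromosome 11, 33529341 to 33893193), 34 times the RefSeq gene, so that other transcripts of this locus may add to its value; no other member's entry was over 1.5 times its RefSeq gene, of 31 with a RefSeq length. Of the ion channel genes listed by their symbols, 2 of 4 were lower in AngII AAA vs. AngII No AAA and 6 of 6 in AngII AAA vs. Saline. Kcnmb1 alone was in both. In AngII No AAA vs. Saline, 10 of 11 were lower in AngII No AAA, so falls against Saline were also seen without an aneurysm. Over all listed genes, the shares lower in these lists were 21%, 15.4%, and 36.5%.

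Adcy5 (chromosome 16, 35155722 to 35304635) encodes adenylate cyclase 5, which makes cyclic AMP. It was at 44.3 FPKM in Saline, 28.6 FPKM in AngII No AAA, and 11.2 FPKM in AngII AAA. The other cyclic nucleotide and G protein genes listed in AngII AAA vs. AngII No AAA, 8 of 9, were higher in AngII AAA. They were picked by the starts of their symbols, and most listed genes of any kind were higher, with 126 of 600 (21%) lower. Rcan2 (chromosome 17, 43938800 to 44176465) encodes a regulator of calcineurin, the calcium-dependent phosphatase, and was at 50.2, 35.7, and 14.4 FPKM in Saline, AngII No AAA, and AngII AAA. Pitpnm3 (chromosome 11, 71861030 to 71949391), of the membrane-associated phosphatidylinositol transfer proteins, was at 7.92, 6.34, and 2.29 FPKM. Map3k7cl (chromosome 16, 87553575 to 87595581), named for its likeness to the C-terminal part of the kinase Map3k7, was at 32, 32.6, and 9.34 FPKM. Map3k7cl was the gene of this group with equal levels in the libraries without an aneurysm, at a ratio of 1.02.

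The regulators comprised 3 genes. Heyl (chromosome 4, 122910799 to 122927113) encodes a basic helix-loop-helix repressor that is a target of Notch signalling in vascular smooth muscle. It was at 35.8 FPKM in Saline, 22.4 FPKM in AngII No AAA, and 9.57 FPKM in AngII AAA. Asb2 (chromosome 12, 104559352 to 104594211) encodes the substrate-binding part of a ubiquitin ligase that acts on filamins and was at 21.4 FPKM in Saline, 9.38 FPKM in AngII No AAA, and 3.14 FPKM in AngII AAA. Mir143hg (chromosome 18, 61799307 to 61825192) is the host transcript of the microRNAs miR-143 and miR-145, which are abundant in smooth muscle and act for its contractile state. It was at 136 FPKM in Saline, 126 FPKM in AngII No AAA, and 36.7 FPKM in AngII AAA. Its level, the highest of the 33 genes in AngII No AAA and in AngII AAA, was that of the host transcript, and the mature microRNAs were not measured here.

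Both secreted factors were abundant. Cytl1 (chromosome 5, 38126758 to 38131059), a cytokine-like protein first described in bone marrow and also made in cartilage, was at 156 FPKM in Saline, 79.5 FPKM in AngII No AAA, and 32.3 FPKM in AngII AAA. It was the most abundant of the 33 genes in Saline and its AngII AAA level was 20.7% of that in Saline and 40.6% of that in AngII No AAA. Cytl1 was the only listed gene of 13 chondrocyte markers in either AngII AAA list. Ccdc3 (chromosome 2, 5058822 to 5151912), a coiled-coil protein secreted by vascular and fat cells, was at 117, 109, and 32.8 FPKM in Saline, AngII No AAA, and AngII AAA. In contrast to Cytl1, Ccdc3 had similar levels in the libraries without an aneurysm.

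A further 4 members are genes of plasma proteins made by the liver. Alb, for serum albumin (chromosome 5, 90889915 to 90905629), was at 128 FPKM in Saline, 87.1 FPKM in AngII No AAA, and 34.6 FPKM in AngII AAA. Apoa1, for the main apolipoprotein of HDL (chromosome 9, 46036713 to 46038552), was at 80.0, 65.8, and 21.2 FPKM, and Apob, for the apolipoprotein of LDL (chromosome 12, 7984483 to 8023645), at 8.57, 5.91, and 2.22 FPKM. Serpina1d (chromosome 12, 105001797 to 105011843), for an alpha-1 antitrypsin, was at 14.2, 13.1, and 2.02 FPKM. The mouse has near-identical copies of this gene, and reads could have been divided among them. The 4 genes were lower in AngII AAA than in both others, and their sum was 231 FPKM in Saline, 172 FPKM in AngII No AAA, and 60.1 FPKM in AngII AAA.

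Of 30 liver plasma protein genes, a list written after the values were seen, 5 were listed in AngII AAA vs. AngII No AAA and all 5 were lower in AngII AAA. In AngII AAA vs. Saline, 9 of 11 were lower, and Hp and Itih4 were higher, Hp from 120 to 1292 FPKM. The liver genes Gc and Serpina1e went from 40.7 to 8.36 FPKM and from 70.6 to 17 FPKM. In AngII No AAA vs. Saline, 4 were listed, 3 higher (Hp, Itih4, and Apoc1) and 1 lower (Gc). On the scale of that list, Gc went from 44.5 to 9.75 FPKM, Hp from 131 to 735 FPKM, and Itih4 from 30.4 to 117 FPKM. The changes of Gc, Hp, and Itih4 were thus also seen without an aneurysm. Whether liver RNA was in the samples, and its part in these values, was not tested.

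The remaining 7 members were genes of the cilium and microtubules and genes of which little is described, with a median log2 difference of -1.63 against AngII No AAA and -2.24 against Saline. Cys1 (chromosome 12, 25350703 to 25366660), for the cilium-associated protein cystin 1, was at 37.0 FPKM in Saline, 19.4 FPKM in AngII No AAA, and 6.84 FPKM in AngII AAA. Cped1 (chromosome 6, 21935910 to 22205606) was at 64.1, 43.3, and 17.5 FPKM. Mtus2 (chromosome 5, 148768896 to 149127641), a microtubule-associated protein, was at 11.9, 8.45, and 3.17 FPKM. These genes declined in the same order of libraries, Saline, AngII No AAA, AngII AAA.

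Wscd2 (chromosome 5, 113919467 to 114039679) was at 13.4 FPKM in Saline, 8.85 FPKM in AngII No AAA, and 2.57 FPKM in AngII AAA, and the RIKEN transcript 6330403A02Rik (chromosome 1, 182362504 to 182413635) at 10.3, 6.13, and 1.82 FPKM. Ccdc141 (chromosome 2, 76847963 to 77008692), a coiled-coil protein, was at 4.55, 4.39, and 1.06 FPKM and so had almost the same level with saline and with AngII without an aneurysm. BC039966 (chromosome 4, 153322564 to 153324585) was at 4.18 FPKM in Saline and 4.92 FPKM in AngII No AAA and was listed at 0 in AngII AAA, so that no fold change is given.

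Of the 33 genes, 3 pairs were neighbours within 1000000 bases in mm9. Casq1 and Igsf9 were 262317 bases apart on chromosome 1, Asb2 and Serpina1d 407585 bases apart on chromosome 12, and Cped1 and Ptprz1 619895 bases apart on chromosome 6. The other 27 had no such neighbour among the members.

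The name given to this group, reduced specifically in aneurysm, was compared with the AngII No AAA library. The rule set no condition between AngII No AAA and Saline, but the lists partly did. The smallest listed fall was -1.57 against Saline and -1.21 against AngII No AAA. A member with a fall between these values against AngII No AAA could be in both lists only with AngII No AAA below Saline. The counts below Saline that follow are therefore partly set by the selection. AngII No AAA was below Saline for 28 of the 33 genes and above it for 5. It was over 1.5-fold below Saline for 9 genes (27.3%), within 1.5-fold for 23, and over 1.5-fold above for 1, Tnnt2. With no constant between lists removed, the counts were 11, 21, and 1, so genes near 1.5-fold depend on the scale. Of 384 entries in both AngII AAA lists with values above 0 in the libraries without an aneurysm, 5.47% were over 1.5-fold below Saline in AngII No AAA, but most of these entries were higher in AngII AAA. The median log2 difference of AngII No AAA minus Saline was -0.35 for the 33 genes and 0.68 for all these entries. For these 9 genes the name is not borne out at 1.5-fold, since the level was lower with AngII also where no aneurysm was found. At 2-fold, 2 genes were lower in AngII No AAA than in Saline, Asb2 and Cytl1.

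The 9 genes were Asb2, Cytl1, Cys1, Itga8, 6330403A02Rik, Heyl, Igsf9, Adcy5, and Wscd2. Wscd2, at 0.660 of the Saline level, was just past 1.5-fold, and Cped1, at 0.676, just short of it. Asb2, Cys1, and Cytl1 were also in the list of AngII No AAA vs. Saline, in which 206 of 564 genes (36.5%) were lower in AngII No AAA. Their log2 differences there were -1.24, -0.98, and -1.02. On the common scale the step from Saline to AngII No AAA made up 43.0% of the log2 fall of Asb2 from Saline to AngII AAA, 38.2% of that of Cys1, and 42.8% of that of Cytl1. For the other 30 genes the ratio of AngII No AAA to Saline was taken through the AngII AAA library, which both lists share.

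Susd5, Map3k7cl, Ccdc141, Ccdc3, Kcnmb1, Mir143hg, and Serpina1d were at the opposite end, with a ratio of AngII No AAA to Saline between 0.917 for Serpina1d and 1.06 for Susd5. Sh3bgr, at 1.08, and BC039966, at 1.18, were slightly above Saline. By function, the ratio did not separate the groups: members below Saline in AngII No AAA were 5 of 7 contractile and calcium store genes, 4 of 5 adhesion genes, 4 of 5 signalling genes, all 3 regulators, both secreted factors, all 4 liver genes, and 6 of the 7 remaining genes.

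**Figure D3:**
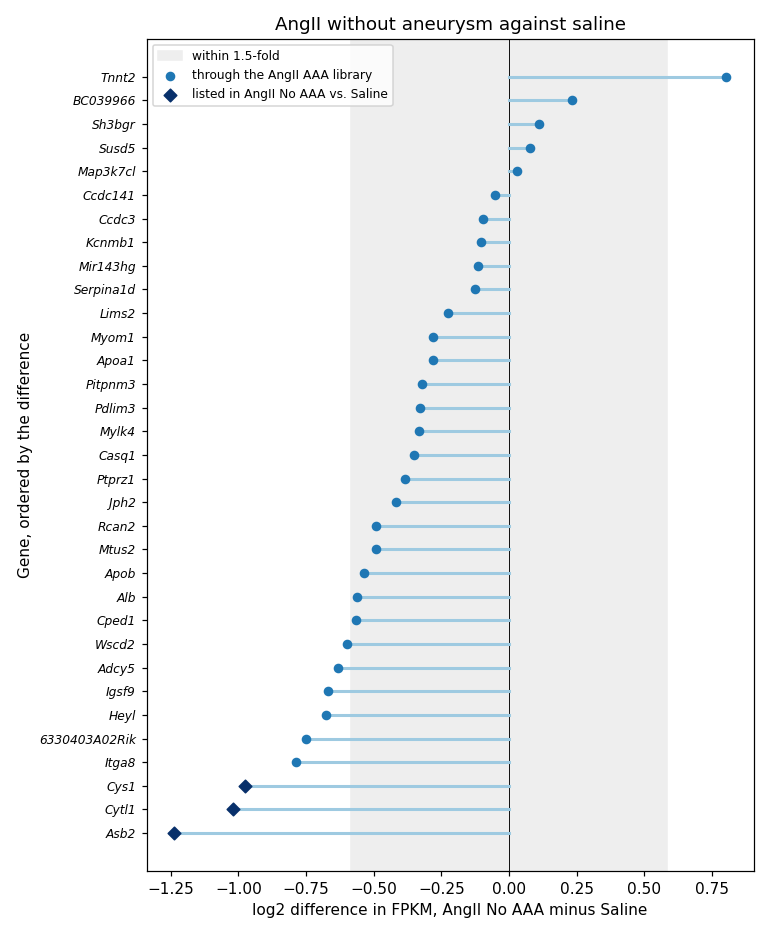
Log2 difference in FPKM between AngII No AAA and Saline for each of the 33 genes, with the shaded band marking 1.5-fold in either direction. Diamonds are the 3 genes in the list of AngII No AAA vs. Saline, at -1.24, -1.02, and -0.98, and circles are ratios taken through the AngII AAA library. Diamonds and circles are on slightly different scales. To the left of the band lie 9 genes, and Tnnt2 lies right of it at 0.80.

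FPKM does not give the number of reads, but many ratios between libraries were ratios of whole numbers up to 100 times a constant, within 1e-05. In AngII AAA vs. Saline, 26.3% of the entries above 0 had such a ratio, and 1 read in Saline was worth 1.5 times the FPKM of 1 read in AngII AAA. For AngII No AAA the factor was 1.47. At a given FPKM, a gene thus had more reads in AngII AAA than in the other libraries. On a transcript of 1 kb, 1 read in AngII AAA was worth 0.291 FPKM.

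With the longest transcript in GENCODE M21, 30 genes above 0 had an estimated 6 to 642 reads in AngII AAA, with a median of 107. Tnnt2 had 6, Serpina1d 10, and Casq1 10, and these 3 were the ones under 20. Serpina1d also had whole numbers in both lists, at least 10 reads in AngII AAA, 44 in AngII No AAA, and 47 in Saline. Its estimates by transcript length, 43 in AngII No AAA and 45 in Saline, were slightly below these, so the estimates are approximate. BC039966, listed at 0 in AngII AAA, had about 16 reads in AngII No AAA and 13 in Saline. A shorter transcript would give fewer reads, so the estimate of 6 reads for Tnnt2 is at the upper end.

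Exact 95% Clopper-Pearson intervals for the log2 difference, computed from these estimated reads, cover counting error only. For Tnnt2 the interval against AngII No AAA ran from -5.47 to -2.77, so that the size of the largest fall was known only roughly. For Itga8, with 642 reads, it ran from -1.56 to -1.28 against AngII No AAA and from -2.34 to -2.08 against Saline. For Susd5 the intervals were -2.18 to -1.72 against AngII No AAA and -2.11 to -1.64 against Saline. Both intervals of a gene share its AngII AAA reads, so their overlap does not measure how far the 2 falls differ. The genes were selected on these falls, and no listed fall was near 0, so the side of 0 on which an interval lies carries no support for a fall. Reads of 1 library are not independent animals, and the intervals say nothing of the spread between mice.

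**Figure D4:**
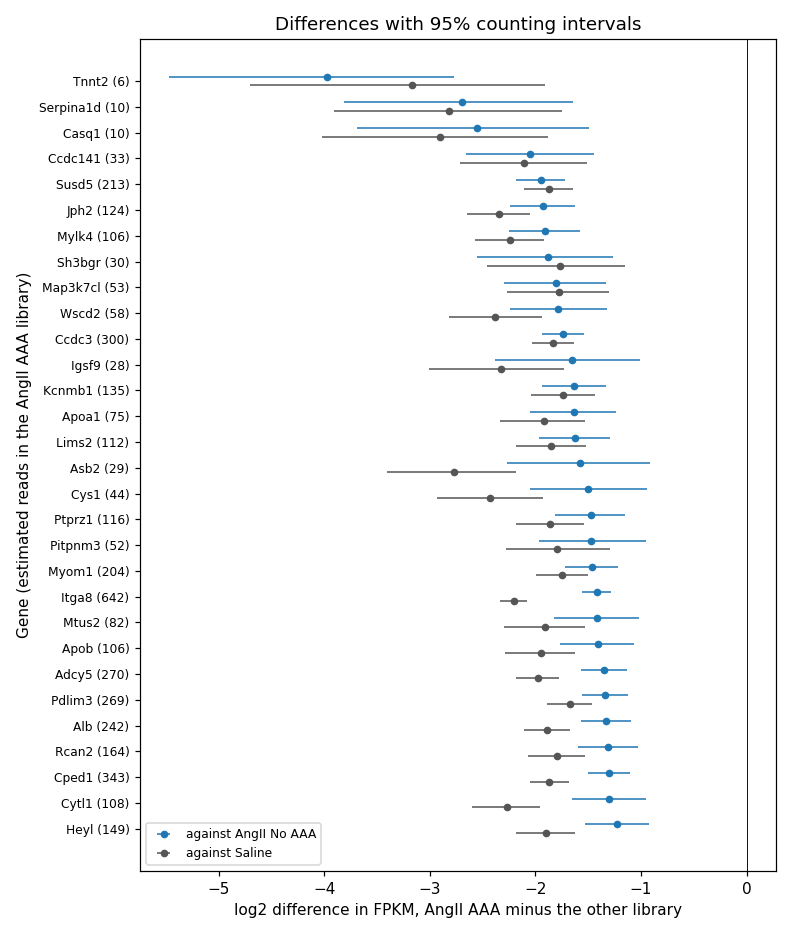
Log2 difference in FPKM of AngII AAA minus AngII No AAA (blue) and minus Saline (grey) for the 30 genes with an estimated read number, with 95% counting intervals; the estimated reads in AngII AAA stand in brackets. The intervals are widest for Tnnt2, Serpina1d, and Casq1, with 6, 10, and 10 reads, and narrowest for Itga8 with 642 reads.

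Markers of other cell types were higher in AngII AAA. Of 20 neutrophil markers, 12 were listed in AngII AAA vs. AngII No AAA and all 12 were higher, and the summed level of the 11 in both AngII AAA lists was 64.6 FPKM in Saline, 119 FPKM in AngII No AAA, and 1472 FPKM in AngII AAA. Of 20 monocyte and macrophage markers, 14 were listed and all 14 were higher, with sums of 152, 379, and 2311 FPKM over 13 genes. All 6 listed platelet markers were higher, with sums of 86.7, 80.3, and 1299 FPKM, and all 8 listed adrenal cortex markers, with sums of 12.9, 15.1, and 455 FPKM over 6 genes. Most entries of any kind went this way. Of the 386 in both AngII AAA lists, 344 were higher there, and 126 of 600 (21%) were lower against AngII No AAA. The sums hold only markers that differed enough to be in both lists, so a large difference of AngII AAA was fixed by the selection. Per library these sums and the 33 genes went in opposite directions between AngII No AAA and AngII AAA. The direction of the 33 genes was set by their selection, so nothing follows from this contrast. Between Saline and AngII No AAA the platelet and adrenal cortex sums hardly moved. The part of these cells in the falls of the 33 genes was not tested. Of 15 endothelial markers, none was listed against AngII No AAA, and 1 was listed as higher against Saline; of 30 adipocyte and 11 mesothelial markers, none was listed in either AngII AAA list.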

How the data were processed

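The 3 suprarenal libraries were analysed, 1 per cohort. Per the labels, each library had between 35000000 and 43000000 reads, and the submitters' processing notes name FastQC, HISAT2, Cufflinks, Cuffdiff, and the build mm9. The authors compared the libraries in pairs and deposited FPKM values of both libraries for genes with an unadjusted p-value under 0.05. The deposited fold changes, test scores, p-values, and significance calls were not used.

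Entries were matched by identifier. A library's FPKM values differed between lists by a constant (0.968 for AngII AAA), which was divided out. Log2 differences carry no pseudocount. With 1 library per cohort no test was made, and a called change is one over 4-fold. Read numbers were estimated from whole-number ratios and GENCODE M21 transcript lengths of GRCm38, after a check on simulated data. Coordinates are mm9 except for promoters. Python 3.11.15, numpy 2.4.6, pandas 2.3.3, and scipy 1.17.1 were used.

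The members and the gene lists were chosen with earlier results of these data known, and the list of liver genes and its removal were added after the values were seen. The text names the 12 members with the largest fall, the 12 most abundant, and those in a list, at 0 in AngII AAA, or in the third list (28 in all); Apob, Igsf9, Mtus2, Pitpnm3, and Ptprz1 were added after their values were seen, so that every member is given.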

Additional observations from a re-analysis of the deposited data

How the results depend on the processing

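Each cohort had 1 library, so no replicate could be left out. No paired analysis was possible because no cohort has replicates. The number of members was 33 in the main selection, also by gene symbol and with at least 1 FPKM, and 30 with at least 5 FPKM, 29 without the liver genes, and 41 with the left-out symbols put back, but 5 where a fall over 4-fold was required in both comparisons. A pseudocount of 1 FPKM moved the median log2 difference to -1.38 against AngII No AAA and -1.86 against Saline, and a pseudocount of 0.1 FPKM, which lets BC039966 enter, to -1.62 and -1.90. Without the liver genes the median against Saline was -1.90. The 5 genes over 4-fold lower than AngII No AAA became 3 with a pseudocount of 1 FPKM and 18 at 3-fold, and the 14 against Saline became 33 at 3-fold. With 2-fold in place of 1.5-fold, 2 genes, not 9, were lower in AngII No AAA than in Saline by more than that fold, and 0, not 1, were higher. The E box was in 12 promoters, not 20, when only the 150 bases before the start were searched. The other 37 of 49 alternatives left counts within 1.5-fold and medians the same to 2 decimals, and none turned a direction. Depth limits the values of Tnnt2, Casq1, Serpina1d, and BC039966 most.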
